A study of Sus scrofa with 6 samples.

Results

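Components of WNT, Hedgehog and BMP/TGF-beta signaling were compared between fetal and neonatal lungs of pigs (Sus scrofa). The genes were taken by their names: the WNT ligands with their FZD receptors, SFRP, DKK and WIF1 inhibitors, AXIN and TCF/LEF factors, the Hedgehog ligands SHH and IHH with PTCH1, SMO, GLI and HHIP, and the BMP and TGFB ligands with their receptors, SMADs and ID targets. Of 84 symbols, 60 were found among the 14579 mRNAs, namely 26 of WNT, 7 of Hedgehog and 27 of BMP/TGF-beta signaling. The other 24 were not analysed here, among them WNT5A, WNT3, WNT4, IHH, BMP2, NOG, GREM1 and ID3.

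The lungs came from untreated female piglets that were hybrids of the Tibetan breed on the paternal side and the Meishan breed on the maternal side. The fetal group was sampled on the last day before birth (Fetal1 to Fetal3) and the neonatal group 2 days after birth (Neonatal1 to Neonatal3). Each piglet gave 1 library from whole lung, and the 3 piglets of a group came from 3 sows, with other sows for each group. Differences between litters are thus part of the spread within a group. The paper states that the parents were kept alike until caesarean and parturition, without naming the group of each. Age and the way of delivery may therefore not be told apart. Levels are FPKM, fragments mapped to a transcript, scaled to its length and to the mapped reads of the library, and can be compared between genes because they are per length.

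WNT ligands bind FZD receptors, and the canonical branch acts through beta-catenin and TCF/LEF factors, with AXIN2 as a usual target gene. Hedgehog ligands bind PTCH1, which releases SMO and activates the GLI factors, and PTCH1, GLI1 and HHIP are usual targets. TGF-beta and BMP ligands bind pairs of serine/threonine kinase receptors that phosphorylate SMADs, with SMAD6, SMAD7 and the ID genes as usual targets. In the lung these pathways take part in branching of the airways, in the exchange between epithelium and mesenchyme, and in the growth of vessels and alveoli.

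The share of lncRNAs listed at 0 was 12.5%, 9.29% and 13.2% in Fetal1, Fetal2 and Neonatal1, and 29.5%, 31.3% and 27.2% in Fetal3, Neonatal2 and Neonatal3, so the latter 3 libraries stood apart in both groups. The FPKM of all mRNAs summed to between 339000 and 471000 in the fetal and between 492000 and 778000 in the neonatal libraries. SFTPC, the surfactant protein of alveolar type II cells, was at 3171 to 3902 FPKM in fetal and 4233 to 8790 in neonatal lungs. SCGB1A1, a marker of club cells in the airways, was at 99.8 to 139 FPKM in fetal lungs and at 62.2 and 62.0 FPKM in Neonatal1 and Neonatal3, but at 0.213 FPKM in Neonatal2. The endothelial marker PECAM1 stood at 120 to 140.4 FPKM in fetal and 125 to 145 in neonatal lungs.

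The limma test was run on log2(FPKM + 1) of all 14579 mRNAs, its p-values were adjusted over them by Benjamini and Hochberg's method, and a gene was called at an adjusted p of 0.05 or less. Every log2 difference below is neonatal minus fetal on this scale, which understates the change of genes with low FPKM. Of all mRNAs, 1001 were called (6.87%), with 789 higher (5.41%) and 212 lower (1.45%) in neonatal lungs. Scaling the samples to each other shifted this split, to 650 higher and 335 lower by median-of-ratios scaling and to 669 higher and 486 lower by quantile normalization. For 4451 mRNAs (30.5%) the fetal and neonatal values were without overlap, with every neonatal value above every fetal one for 3046 (20.9%) and below for 1405 (9.64%). An unadjusted p under 0.05 was found for 3535 mRNAs (24.2%), and 59.9% of all mRNAs had a higher mean after birth on the log2 scale. Of the 60 signaling genes, 7 were called (11.7%), namely WNT7B, WNT11, SFRP1, BMP6, ENG and SMAD6, which rose, and FZD9, which fell. The split of 6 higher and 1 lower became 5 and 3 by median-of-ratios scaling and 5 and 2 by quantile normalization. Among the 60, 21 had no overlap (35.0%), a share near that of all mRNAs, with 17 higher and 4 lower in neonatal lungs. Their median log2 difference was 0.13, the same as that of all mRNAs (0.13), and single genes ranged from -2.03 to 1.60. In the deposited table each gene had passed 0.5 FPKM in at least 1 sample, and 2 of the 60 genes, FZD10 and SFRP5, passed it in 1 group only.

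**Figure D1:**
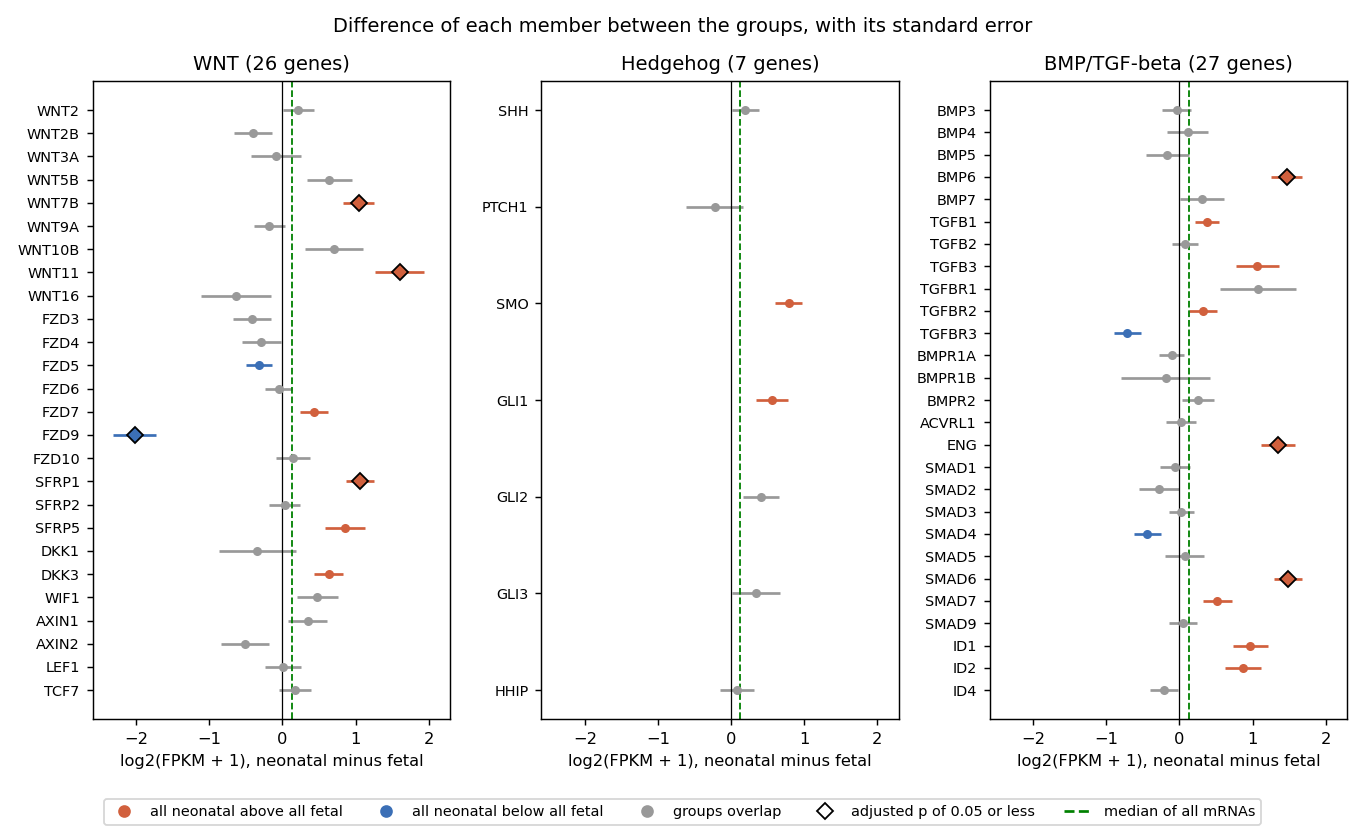
Log2(FPKM + 1) difference, neonatal minus fetal, of each of the 60 genes on the x axis with its standard error as a bar, 1 panel per pathway; diamonds mark an adjusted p of 0.05 or less, colors tell whether the groups overlap, and the dashed line is the median of all mRNAs. FZD9 (-2.03) lies farthest left, WNT11 (1.60), SMAD6 (1.49) and BMP6 (1.47) farthest right, and no Hedgehog gene has a diamond.

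In the WNT pathway, 4 of 26 genes were called (15.4%, against 6.87% of all mRNAs). WNT7B, WNT11 and SFRP1 were higher after birth and FZD9 was lower, while none of the intracellular factors passed the test. There was no overlap for 8 genes (30.8%), with 6 higher and 2 lower in neonatal lungs, and the median difference of the WNT members was 0.09 on the log2 scale, or -0.0213 after quantile normalization. At an unadjusted p under 0.05 there were 6 of 26 genes, near the share of all mRNAs (24.2%), as was the share without overlap (30.5% of all mRNAs).

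Among the 9 ligands found, 2 rose. WNT7B, a ligand made by the airway epithelium during lung development, stood at 1.803, 2.24 and 1.17 FPKM in Fetal1 to Fetal3 and at 4.74, 4.28 and 4.68 FPKM in Neonatal1 to Neonatal3. Every neonatal lung was above every fetal lung, and the means were 1.74 ± 0.542 and 4.57 ± 0.248 FPKM (SD, n = 3 each). This was a 2.63-fold rise (log2 difference 1.04, SE 0.21, limma adjusted p = 0.0322), but with any 1 piglet left out the adjusted p of WNT7B lay between 0.0681 and 0.104. WNT11, a ligand best known for beta-catenin-independent signaling, was at 1.05, 1.70 and 2.37 FPKM in fetal and at 4.24, 7.34 and 11.0 FPKM in neonatal lungs. The groups did not overlap, and WNT11 rose 4.41-fold, from 1.71 ± 0.656 to 7.53 ± 3.39 FPKM (log2 difference 1.60, SE 0.34, limma adjusted p = 0.0352). The 3 neonatal lungs spread widely for this gene, and its adjusted p reached 0.145 with 1 piglet left out and stayed past the threshold without Neonatal1 alone. Since whole lung was sequenced, more cells of a type and more RNA per cell cannot be told apart for these or the genes below.

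WNT3A, WNT5B and WNT2 did not pass the test. WNT3A, a canonical ligand, was at 8.83, 7.34 and 14.0 FPKM before and 5.66, 13.7 and 9.31 FPKM after birth (log2 difference -0.09, adjusted p = 0.887). WNT5B, a relative of WNT5A, was at 8.79, 5.72 and 8.51 FPKM against 13.1, 7.99 and 17.8 FPKM (log2 difference 0.64, adjusted p = 0.243). For both the groups overlapped. WNT2, a ligand of the lung mesenchyme, was at 4.90, 3.74 and 4.36 FPKM in fetal and at 4.06, 5.28 and 6.38 FPKM in neonatal lungs, with a log2 difference of 0.22 and a 95% interval from -0.28 to 0.71. The other 4 ligands, WNT2B, WNT9A, WNT10B and WNT16, had log2 differences from -0.63 to 0.71, and their lowest adjusted p was 0.319.

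As a share of the summed FPKM of the 9 ligands, WNT11 took 2.62%, 5.49% and 5.97% in fetal and 10.3%, 15.0% and 19.6% in neonatal lungs. WNT7B took 4.49%, 7.22% and 2.94% before and 11.5%, 8.75% and 8.32% after birth. Neither share overlapped between the groups. In an exact permutation test each gave p = 0.1 (two-sided), the smallest that 3 piglets against 3 allow, or 0.271 after adjustment over the 46 shares of 9 gene families compared. Of these 46 shares, 17 did not overlap between the groups. The shares of a family depend on each other, since a higher share of a gene means lower shares of others. WNT3A held between 22.0% and 35.3% in fetal and between 13.7% and 28.0% in neonatal lungs.

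Of the 7 receptors found, 1 was called, FZD9. It was at 8.67, 4.93 and 5.47 FPKM in fetal lungs and at 0.747, 0.347 and 1.33 FPKM in neonatal lungs. Its highest neonatal value was well below its lowest fetal value, and the mean fell from 6.35 ± 2.02 to 0.809 ± 0.496 FPKM, a level 7.85 times higher before birth. This was the lowest log2 difference of the 60 genes (-2.03, SE 0.29, limma adjusted p = 0.01). The adjusted p of FZD9 was 0.053 without Fetal2 and 0.0501 without Neonatal2, and it stayed past the threshold with each of the other 4 piglets left out. FZD9 was thus 1 of 212 mRNAs called lower and the only called gene of the 60 with that direction.

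FZD5 was also lower in every neonatal lung (8.73, 9.78 and 8.84 FPKM against 8.28, 6.58 and 6.48 FPKM), but did not pass the test (log2 difference -0.32, SE 0.18, adjusted p = 0.303). FZD7, in contrast, had each neonatal value above each fetal value, with 12.2, 12.3 and 12.8 FPKM before and 16.6, 14.1 and 21.2 FPKM after birth (log2 difference 0.43, SE 0.19, adjusted p = 0.226). FZD4 and FZD6 overlapped between the groups. FZD4, which also binds the ligand norrin in vessels, was at 13.4 ± 1.39 FPKM in fetal and 11.2 ± 3.71 FPKM in neonatal lungs (log2 difference -0.29, 95% interval from -0.90 to 0.33). FZD6 had a log2 difference of -0.05 (95% interval from -0.49 to 0.39). FZD3 and FZD10 had adjusted p of 0.371 and 0.73.

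Within the 7 receptors, FZD9 made up 14.2%, 8.50% and 8.96% of the summed FPKM in fetal and 1.28%, 0.697% and 2.53% in neonatal lungs. FZD7 made up 19.9%, 21.2% and 21.0% before and 28.6%, 28.3% and 40.3% after birth. For both the shares of the groups did not overlap (exact permutation p = 0.1, adjusted 0.271).

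Of the 6 secreted inhibitors found, 1 rose. SFRP1, which binds WNT ligands outside the cell, was at 3.58, 2.49 and 2.81 FPKM in fetal and at 6.29, 7.80 and 7.68 FPKM in neonatal lungs. It rose in all neonatal lungs and by 2.45-fold, from 2.96 ± 0.562 to 7.26 ± 0.842 FPKM (log2 difference 1.06, SE 0.20, limma adjusted p = 0.0228). With 1 piglet left out the adjusted p of SFRP1 ran from 0.0394 to 0.110, and it was past the threshold without Neonatal1 only. DKK3, a divergent member of the Dickkopf family, had values of 10.6, 7.28 and 8.37 FPKM in fetal and 12.4, 13.5 and 16.3 FPKM in neonatal lungs. Its groups did not overlap either, yet DKK3 did not pass the test (log2 difference 0.63, SE 0.20, adjusted p = 0.11). SFRP5, at low levels, was at 0.304 and 0.434 FPKM and listed at 0 in Fetal3, against 0.610, 1.83 and 1.43 FPKM after birth (adjusted p = 0.119). WIF1 overlapped, with 12.5, 8.84 and 13.5 FPKM against 14.3, 24.0 and 12.6 FPKM (log2 difference 0.48, adjusted p = 0.335). SFRP2 and DKK1 had adjusted p of 0.941 and 0.724.

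The 4 intracellular components, with the readout genes of the canonical branch, gave 0 calls in limma and 0 at an unadjusted p under 0.05, and their groups overlapped. AXIN2 was at 8.74, 9.19 and 20.3 FPKM in fetal and at 10.23, 7.38 and 6.74 FPKM in neonatal lungs (log2 difference -0.51, 95% interval from -1.28 to 0.26, adjusted p = 0.384). Fetal3 alone held the high value of AXIN2. LEF1 was at 2.43, 3.35 and 3.90 FPKM against 4.31, 2.31 and 3.18 FPKM (95% interval of the log2 difference from -0.58 to 0.58). TCF7 had a log2 difference of 0.17 (95% interval from -0.33 to 0.67), and AXIN1, a scaffold of the complex that degrades beta-catenin, had 0.34 (adjusted p = 0.472). These intervals still allow differences of the size of some called genes for AXIN2, and smaller ones for LEF1 and TCF7.

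Other genes of the WNT pathway, taken from a list of ligand processing factors, co-receptors, the R-spondin system, secreted inhibitors and intracellular components, gave 0 calls among 26 found of 39 in limma, with 4 at an unadjusted p under 0.05 (24.2% of all mRNAs). The groups did not overlap for 4 of them (30.5% of all mRNAs), 3 higher and 1 lower, and their median log2 difference was 0.07. By both median-of-ratios scaling and quantile normalization, PYGO1, a nuclear partner of beta-catenin, was called lower (as deposited, log2 difference -0.67, adjusted p = 0.0815).

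**Figure D2:**
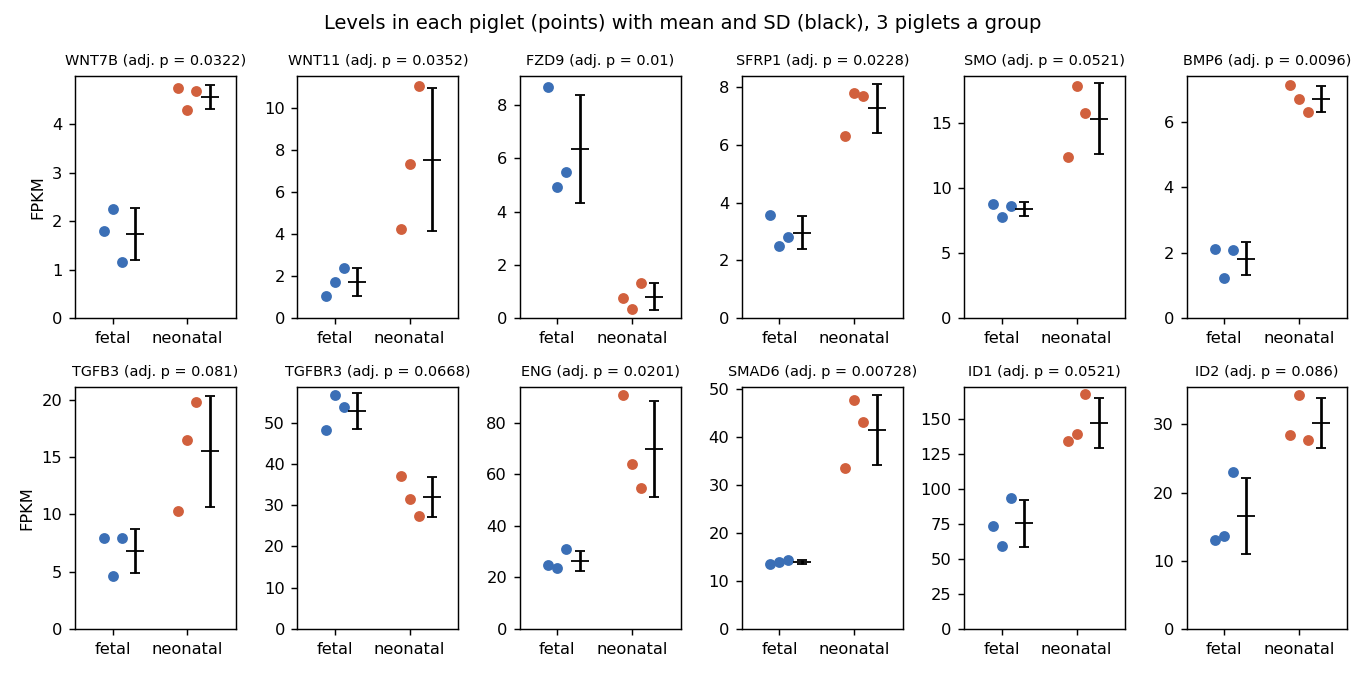
FPKM on linear y axes for single genes, with 1 point per piglet and the mean and SD in black for the 3 fetal and the 3 neonatal piglets; the adjusted p stands above each panel. The fetal and the neonatal points of SMAD6 and BMP6 are apart by more than the range of either group, and those of FZD9 do not overlap. The 3 neonatal points of WNT11 run from 4.24 to 11.0 FPKM.

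In the Hedgehog pathway, 0 of 7 genes were called in limma, with 2 of 7 at an unadjusted p under 0.05 (24.2% of all mRNAs), and 6 of 7 had a higher mean after birth (59.9% of all mRNAs). The median log2 difference was 0.34, against 0.13 for all mRNAs. The groups did not overlap for 2 genes (28.6%, against 30.5% of all mRNAs), SMO and GLI1. The ligand SHH, secreted by the lung epithelium, was at 8.39, 9.01 and 10.1 FPKM in fetal and at 8.64, 12.1 and 11.5 FPKM in neonatal lungs. Its groups overlapped, with a log2 difference of 0.20 and a 95% interval from -0.25 to 0.64.

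SMO, the membrane protein that carries the signal inward, was at 8.76, 7.74 and 8.64 FPKM before and at 12.4, 17.9 and 15.8 FPKM after birth. Each neonatal lung was above each fetal lung, with means of 8.38 ± 0.556 and 15.3 ± 2.76 FPKM and a ratio of 1.83. The log2 difference of SMO was 0.79 (SE 0.19, 95% interval from 0.35 to 1.23), and the adjusted p of 0.0521 lay just beyond the threshold. Without Neonatal1 the adjusted p was 0.0393, and 0.0434 when mRNAs with low FPKM were filtered more strictly.

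The receptor and target PTCH1 was at 1.72, 3.65 and 3.12 FPKM in fetal and at 4.61, 1.72 and 1.14 FPKM in neonatal lungs, so that Neonatal1 was the highest and Neonatal3 the lowest of all 6 (log2 difference -0.22, 95% interval from -1.14 to 0.69). GLI1, a transcription factor and target of the pathway, was at 0.325, 0.498 and 0.963 FPKM against 1.26, 1.29 and 1.44 FPKM. The groups of GLI1 did not overlap, but its difference did not pass the test (0.57, SE 0.22, adjusted p = 0.174). GLI2 (0.533 to 2.06 FPKM over the 6 lungs) and GLI3 (0.471 to 2.37 FPKM) had adjusted p of 0.35 and 0.564. HHIP, which binds the ligands and was the most abundant gene of the pathway, was at 29.6, 23.7 and 38.0 FPKM before and 37.4, 26.1 and 32.3 FPKM after birth (log2 difference 0.08, 95% interval from -0.47 to 0.62). The 3 usual targets thus gave separate pictures, with GLI1 higher in each neonatal lung and with PTCH1 and HHIP overlapping.

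From a list of 16 other Hedgehog genes, 11 were found and 2 were called (18.2%, against 6.87% of all mRNAs), both higher. EVC could be found only because its symbol stands in the study's own list of differentially expressed mRNAs, so its call is no independent one, and without it 1 of 10 genes was called. DHH, another Hedgehog ligand, was at 0.931, 0.604 and 1.25 FPKM in fetal and at 4.11, 3.68 and 3.07 FPKM in neonatal lungs (log2 difference 1.27, SE 0.22, limma adjusted p = 0.0181). EVC, a protein of the primary cilium that acts with SMO, was at 1.63, 1.91 and 4.03 FPKM against 8.19, 11.7 and 13.6 FPKM (log2 difference 1.82, SE 0.30, limma adjusted p = 0.0171). For both genes the groups did not overlap. Each was past the threshold in 2 of the 6 fits that left out 1 piglet, with adjusted p up to 0.0877 for DHH and 0.0990 for EVC. The groups also did not overlap for 2 more genes of the list, both higher (36.4% of the 11 genes in all, against 30.5% of all mRNAs). The median log2 difference of the 11 genes was 0.28.

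In the BMP/TGF-beta pathway, 3 of 27 genes were called (11.1%, against 6.87% of all mRNAs), BMP6, ENG and SMAD6. All 3 rose, as did 78.8% of all called mRNAs. No overlap between the groups was found for 11 genes (40.7%, against 30.5% of all mRNAs), with 9 higher and 2 lower in neonatal lungs, and 9 of 27 genes had an unadjusted p under 0.05 (24.2% of all mRNAs). The median difference of the BMP/TGF-beta members was 0.07 on the log2 scale, or -0.11 after quantile normalization. The summed FPKM of the 27 genes was 620, 589 and 671 in fetal and 823, 840 and 822 in neonatal lungs, while the sum over all mRNAs was higher in neonatal lungs as well, as given above.

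BMP6, a ligand of the BMP branch, was at 2.12, 1.24 and 2.09 FPKM in fetal and at 7.12, 6.69 and 6.30 FPKM in neonatal lungs. The 3 neonatal lungs lay close together and far above the fetal ones, with means of 1.82 ± 0.504 and 6.70 ± 0.408 FPKM. This was a 3.69-fold rise (log2 difference 1.47, SE 0.21, limma adjusted p = 0.0096). The adjusted p of BMP6 was 0.0528 without Fetal2 and 0.0519 without Neonatal2, and past the threshold without any other piglet. The remaining BMP ligands did not pass the test. BMP4, a ligand of the distal lung bud, was at 5.40, 3.34 and 6.37 FPKM against 4.04, 5.18 and 7.32 FPKM (log2 difference 0.11, 95% interval from -0.54 to 0.77). BMP3, BMP5 and BMP7 had log2 differences of -0.04, -0.16 and 0.31 with adjusted p of 0.922, 0.758 and 0.569. Among the 5 BMP ligands, BMP6 took 8.51%, 5.39% and 5.47% of the summed FPKM before and 22.7%, 17.8% and 17.5% after birth (exact permutation p = 0.1, adjusted 0.271).

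None of the 3 TGFB ligands passed the test, although the groups did not overlap for TGFB1 and TGFB3. TGFB1 was at 17.2, 15.2 and 16.8 FPKM in fetal and at 21.2, 23.6 and 19.8 FPKM in neonatal lungs (log2 difference 0.37, 95% interval from -0.01 to 0.75, adjusted p = 0.218). TGFB3 was at 7.91, 4.58 and 7.98 FPKM against 10.3, 16.5 and 19.8 FPKM, with means of 6.82 ± 1.94 and 15.5 ± 4.85 FPKM (log2 difference 1.07, SE 0.30, adjusted p = 0.081). TGFB2 was at 17.5 ± 2.19 FPKM before and 18.5 ± 2.00 FPKM after birth (log2 difference 0.07, 95% interval from -0.35 to 0.49). In shares of their sum, TGFB2 held 42.4%, 43.1% and 43.5% in fetal and 38.4%, 32.8% and 29.0% in neonatal lungs. TGFB3 held 18.2%, 13.1% and 18.2% before and 20.1%, 27.6% and 35.5% after birth. The shares of TGFB2 and TGFB3 did not overlap between the groups (exact permutation p = 0.1, adjusted 0.271), whereas those of TGFB1 did (p = 0.6).

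None of the 3 TGF-beta receptors and co-receptors passed the test. TGFBR2, the ligand-binding type II receptor, was at 98.2, 113 and 116 FPKM in fetal and at 140.0, 134 and 135 FPKM in neonatal lungs, with no overlap (log2 difference 0.32, 95% interval from -0.12 to 0.76, adjusted p = 0.34). TGFBR3, the co-receptor betaglycan, was at 48.2, 56.8 and 53.8 FPKM before and at 37.2, 31.4 and 27.4 FPKM after birth. Each neonatal value of TGFBR3 was below each fetal value, from a mean of 52.9 ± 4.35 to 32.0 ± 4.90 FPKM, but the adjusted p was 0.0668 (log2 difference -0.72, SE 0.19). It was 0.0482 without Neonatal1. TGFBR1, the type I receptor, was at 3.56, 3.33 and 1.55 FPKM against 2.34, 12.1 and 9.78 FPKM (log2 difference 1.07, SE 0.52, adjusted p = 0.252). Neonatal1 was the piglet with the low TGFBR1 value after birth, and without it the log2 difference was 1.68 (adjusted p = 0.0439). Of the sum of these receptors, TGFBR2 made up between 65.3% and 67.7% in fetal and between 75.4% and 78.4% in neonatal lungs, and TGFBR3 between 31.4% and 32.8% before and between 15.9% and 20.7% after birth.

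ENG (endoglin), a co-receptor for BMP and TGF-beta ligands found mainly on endothelium, was the only called gene among 5 receptors and co-receptors of the BMP branch. It was at 24.6, 23.6 and 31.0 FPKM in fetal and at 90.6, 64.0 and 54.8 FPKM in neonatal lungs. The groups did not overlap, and ENG rose 2.65-fold, from 26.4 ± 3.99 to 69.8 ± 18.6 FPKM (log2 difference 1.35, SE 0.24, limma adjusted p = 0.0201). The adjusted p of ENG was up to 0.102 with 1 piglet left out and past the threshold without Neonatal1 or Neonatal3 only. ACVRL1, the type I receptor that acts with ENG on endothelium, was at 61.8, 50.6 and 58.0 FPKM against 47.6, 58.2 and 68.9 FPKM (log2 difference 0.02, 95% interval from -0.46 to 0.50). BMPR2, a type II receptor, was at 91.3, 87.5 and 87.0 FPKM before and 129, 110.4 and 83.6 FPKM after birth (log2 difference 0.26, 95% interval from -0.26 to 0.77). BMPR1A and BMPR1B had log2 differences of -0.11 and -0.19. ENG took 12.3%, 12.9% and 16.1% of the sum of the 5 receptors in fetal and 32.0%, 25.4% and 24.2% in neonatal lungs.

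Among the 8 SMADs, the inhibitory SMAD6 rose. It was at 13.6, 14.1 and 14.4 FPKM in fetal and at 33.5, 47.8 and 43.2 FPKM in neonatal lungs, with a narrow spread before birth. The means of SMAD6 were 14.0 ± 0.400 and 41.5 ± 7.27 FPKM, a 2.96-fold rise (log2 difference 1.49, SE 0.19, limma adjusted p = 0.00728). SMAD6 was the only one of the 7 called genes that stayed past the threshold whichever of the 6 piglets was left out, with adjusted p from 0.0169 to 0.0472. SMAD7, the other inhibitory SMAD, was at 17.4, 13.2 and 12.1 FPKM against 19.0, 19.4 and 23.6 FPKM. Its groups did not overlap, but it did not pass the test (log2 difference 0.52, SE 0.20, adjusted p = 0.168). SMAD4, the common partner of the signaling SMADs, was at 37.1, 29.9 and 31.8 FPKM in fetal and at 20.9, 25.4 and 25.8 FPKM in neonatal lungs, with each neonatal value lower (log2 difference -0.44, SE 0.18, adjusted p = 0.191). With samples scaled by median-of-ratios or quantile normalization SMAD4 was called, at adjusted p of 0.0479 and 0.0236. The receptor-activated SMAD1, SMAD2, SMAD3, SMAD5 and SMAD9 had log2 differences from -0.27 to 0.07, and their lowest adjusted p was 0.572.

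The shares of SMAD4 and SMAD6 did not overlap between the groups. SMAD4 made up 38.6%, 35.1% and 35.8% of the summed FPKM in fetal and 20.4%, 20.8% and 21.4% in neonatal lungs. SMAD6 made up 14.1%, 16.5% and 16.2% before and 32.8%, 39.2% and 35.8% after birth, the widest gap of the 46 shares (20.3 percentage points). Both had exact permutation p = 0.1 and an adjusted p of 0.271.

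The ID genes, inhibitors of basic helix-loop-helix factors and usual BMP targets, gave 0 calls among the 3 found in limma, with 2 at an unadjusted p under 0.05. The symbol of ID1 also came only from the study's list of differentially expressed mRNAs, so its difference is no independent evidence. ID1 was at 73.4, 59.5 and 93.4 FPKM in fetal and at 135, 139 and 168 FPKM in neonatal lungs. Each neonatal lung was above each fetal lung for ID1, with a ratio of 1.95, and the adjusted p of 0.0521 lay just beyond the threshold (log2 difference 0.97, 95% interval from 0.43 to 1.52). ID2 was at 13.0, 13.6 and 23.1 FPKM against 28.4, 34.4 and 27.8 FPKM, also with no overlap (log2 difference 0.87, SE 0.25, adjusted p = 0.086). ID4 overlapped, with 18.3, 16.5 and 19.7 FPKM before and 12.8, 18.4 and 15.7 FPKM after birth (log2 difference -0.21, adjusted p = 0.527). As shares of the sum of these genes, ID1 held 70.1%, 66.4% and 68.6% in fetal and 76.6%, 72.5% and 79.4% in neonatal lungs, and ID4 17.4%, 18.4% and 14.5% against 7.26%, 9.60% and 7.44%.

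A list of 49 other BMP/TGF-beta genes, of which 30 were found, held 6 calls, and all 6 rose with the values as deposited. By median-of-ratios scaling 5 were called higher and 1 lower (CHRDL1), and by quantile normalization 5 higher and 2 lower (CHRDL1 and DCN). INHA, the alpha subunit of inhibin, was at 0.144 and 0.0413 FPKM and listed at 0 in Fetal2, against 6.45, 9.29 and 8.66 FPKM in neonatal lungs (limma adjusted p = 0.00125). INHA passed the limit of 0.5 FPKM in the neonatal group only. THBS1, which activates latent TGF-beta, was at 17.1, 10.18 and 15.2 FPKM against 49.4, 47.1 and 47.7 FPKM (log2 difference 1.72, SE 0.22, limma adjusted p = 0.00726). GDF10, a secreted ligand of the TGF-beta family, was at 2.43, 2.08 and 1.44 FPKM before and 6.76, 9.17 and 7.13 FPKM after birth (limma adjusted p = 0.0095). INHA and THBS1 remained past the threshold whichever piglet was left out, and GDF10 in 4 of 6 such fits.

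BAMBI, a decoy receptor that dampens TGF-beta signaling, was at 1.81, 1.49 and 1.44 FPKM in fetal and at 4.66, 6.72 and 7.87 FPKM in neonatal lungs (log2 difference 1.50, SE 0.22, limma adjusted p = 0.0118). TGFBI, a matrix protein induced by TGF-beta, was at 37.9, 28.0 and 53.1 FPKM against 98.8, 108 and 104 FPKM (log2 difference 1.41, SE 0.25, limma adjusted p = 0.0215). With 1 piglet left out, BAMBI was past the threshold in 1 of 6 fits and TGFBI in 2. The sixth gene was PMEPA1, which was not called under either scaling and whose symbol came only from the study's list of differentially expressed mRNAs, so that 5 of 29 genes were called without it. The groups did not overlap for 15 of the 30 genes (50.0%, against 30.5% of all mRNAs), 11 higher and 4 lower. The median log2 difference was 0.15.

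Summed markers of several cell types also differed between the groups. The summed FPKM of 7 smooth muscle markers was 395 to 636 in fetal and 1197 to 1857 in neonatal lungs, and 4 of them rose (ACTA2, CNN1, TAGLN and ACTG2). For 6 fibroblast markers the sum was 726 to 897 before and 1130 to 1341 after birth, with 2 called, MEOX2 and THY1. The 5 neutrophil markers summed to 81.7 to 155 and 842 to 1311 FPKM, with 3 called and ELANE listed at 0 in each neonatal sample, and 11 of 11 proliferation genes rose (13.7 to 17.1 against 110 to 130 FPKM). Alveolar type II markers summed to 4912 to 5503 and 6660 to 11826 FPKM, with 0 of 9 called in limma and 1 at an unadjusted p under 0.05.

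The 8 macrophage markers all had a higher mean after birth (425 to 980 against 726 to 1731 FPKM), with a median log2 difference of 0.96 and 5 at an unadjusted p under 0.05, although their sums overlapped and 0 were called in limma. Of the markers above, THY1, S100A9, S100A12, CCNA2, AURKA, SFTPA1, C1QC and AIF1 had symbols only from the study's list of differentially expressed mRNAs. Without such genes 1 of 5 fibroblast, 1 of 3 neutrophil and 9 of 9 proliferation genes were called.

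Other lists whose sums overlapped between the groups were 5 alveolar type I markers (865 to 1281 against 755 to 1374 FPKM), 6 pericyte markers (81.1 to 99.7 against 89.4 to 102), 6 airway markers (2381 to 6945 against 959 to 2973), 5 lymphocyte markers (8.82 to 11.997 against 6.82 to 18.5) and 5 erythroid markers (1261 to 2700 against 968 to 1536). The 10 endothelial markers summed to 570 to 704 FPKM before and 730 to 995 after birth, but had a median log2 difference of -0.03. Only CLDN5 among them was higher in each neonatal lung (means of 229 and 537 FPKM). KDR (57.2 and 43.0 FPKM) and EMCN (81.2 and 47.9 FPKM) were lower in each, and 7 overlapped. CLDN5, EMCN and the pericyte marker RGS5 also had symbols only from the study's list of differentially expressed mRNAs. The part of these cell types in the signaling genes was not tested. The ratios that follow only describe the values, and each sum is weighted by its most abundant genes, such as SFTPC and CLDN5.

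Relative to the smooth muscle sum, WNT7B, WNT11, SFRP1, ENG and SMAD6 overlapped between the groups, whereas FZD9 stayed lower in each neonatal lung. BMP6 was higher in each neonatal lung by a very small margin only. It was at 0.334%, 0.313% and 0.359% of this sum in fetal and at 0.594%, 0.36% and 0.37% in neonatal lungs. Relative to the endothelial, fibroblast and alveolar type I sums, all 6 genes that rose stayed higher in each neonatal lung, and FZD9 stayed lower. Relative to the alveolar type II sum, WNT7B, SFRP1 and ENG overlapped. For ENG the ratio to PECAM1 was 0.191, 0.197 and 0.22 in fetal and 0.69, 0.441 and 0.438 in neonatal lungs. For SMAD6 this ratio was 0.106, 0.117 and 0.103 before and 0.256, 0.329 and 0.345 after birth. Both ratios were higher in each neonatal lung, but they rest on PECAM1, 1 of the 10 endothelial markers. Ratios to the other single markers were not compared, among them CLDN5, which was itself higher in each neonatal lung. The part of endothelial cells in ENG and SMAD6 was not tested.

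**Figure D3:**
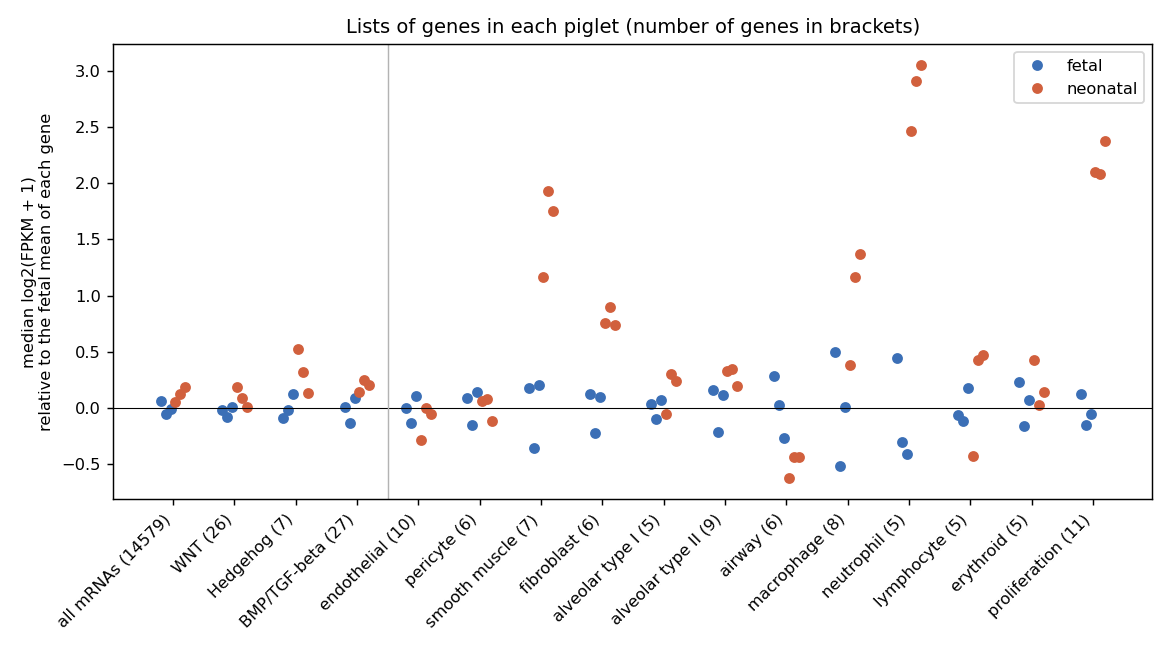
Median over the genes of a list of log2(FPKM + 1) minus its mean in the fetal piglets, gene by gene (y axis), with 1 point per piglet, for the 3 pathways, all mRNAs and the marker lists (number of genes in brackets). The proliferation, neutrophil and smooth muscle lists lie highest in neonatal piglets, while the neonatal points of the WNT (0.01 to 0.18) and BMP/TGF-beta genes (0.14 to 0.25) stay near those of all mRNAs (0.05 to 0.19). Neonatal points of the Hedgehog genes run from 0.13 to 0.52.

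The 7 called genes kept their direction within both sets of libraries given by the lncRNAs listed at 0, although each set held only 3 libraries and no test was made. In Fetal1, Fetal2 and Neonatal1 the log2 differences were 0.93 for WNT7B, 1.15 for WNT11, 0.87 for SFRP1, 1.62 for BMP6, 1.87 for ENG, 1.22 for SMAD6 and -2.12 for FZD9. In Fetal3, Neonatal2 and Neonatal3 they were 1.34, 1.57, 1.197, 1.28, 0.91, 1.59 and -1.87 in the same order. With fewer piglets the number of called genes fell in most cases. It was 0 for WNT without Fetal2 or without Neonatal2, and 1 (FZD9) without Fetal1, Fetal3 or Neonatal3. For BMP/TGF-beta it was 1 (SMAD6) without Fetal2 or without Neonatal2 and 5 without Neonatal1.

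**Figure D4:**
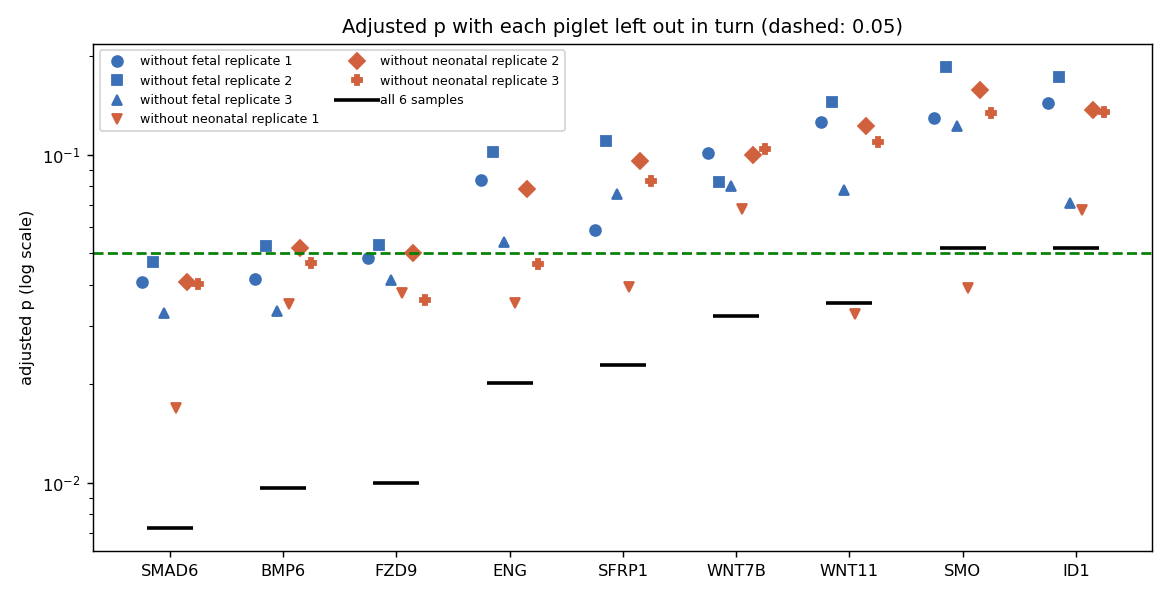
Adjusted p of each called gene, and of SMO and ID1, which were not called (y axis, log scale). Black bars are fits with all 6 piglets, symbols those with each piglet left out in turn, and the dashed line is the threshold of 0.05. All symbols of SMAD6 lie below the line (0.0169 to 0.0472), those of BMP6 and FZD9 reach just above it (0.0528 and 0.053), and all symbols of WNT7B lie above it (0.0681 to 0.104).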

How the data were processed

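Lung RNA of 3 fetal and 3 neonatal piglets was sequenced from strand-specific Ribo-Zero libraries. The authors mapped the reads to Sscrofa10.2 with TopHat2 2.1.0 and computed the deposited FPKM of mRNAs with Cufflinks 2.2.1, and the submitters' processing notes also name CASAVA 1.8.2 and StringTie 1.2.2. The authors kept mRNAs above 0.5 FPKM in at least 1 sample. No read counts were used here, so depth per value is unknown, only the spread between piglets entered the errors, and a value of 0 can be a failed estimate. All value columns were matched to samples by name (0 unmatched). The authors' own fold changes and p-values were not used, except that symbols missing from the Ensembl gene names were read from their list of differentially expressed mRNAs. This named 1 of the 60 genes (ID1), 2 of 67 other pathway genes (EVC and PMEPA1) and 11 of 83 marker genes, which were therefore found because they differed in these data.

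The limma fit (version 3.58.1, under R 4.3.3) used log2(FPKM + 1), thus a pseudocount of 1, and a variance trend, over all 14579 mRNAs with Benjamini-Hochberg adjustment. Shares within families were compared by exact permutation tests (Python 3.11.15, numpy 2.4.6, pandas 2.3.3), and figures drawn with matplotlib 3.10.9. The limma script was first tested on simulated tables of 14579 mRNAs, with 200 of the more abundant ones altered and the others left unchanged. Of these 200, it recovered 0 when the log2 difference was set to 1, 167 when set to 2 and 195 when set to 4. False calls numbered 0, 11 and 10 in the same order. The simulated tables held fewer altered mRNAs than the 1001 called in the data, which makes the adjustment stricter in them. In the data WNT7B and SFRP1 were called at log2 differences of 1.04 and 1.06. The simulated counts thus do not give the share of true changes found here. Missing the threshold is still no evidence that a gene was unchanged, above all for log2 differences near 1 or smaller.

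The signaling genes and lists were chosen with earlier results of these data known, and the rule for the signaling genes uses names only. The rule named each called gene, in each pathway the 5 largest rises and falls without overlap, the 3 most abundant genes of each role, the usual readout genes and main ligands, and at most 5 called genes of each list of other pathway genes. Signaling genes outside the rule were given as ranges or with a log2 difference or adjusted p only, and PYGO1, CHRDL1, DCN and SCGB1A1 were named after their values were seen. Of the markers, SFTPC, PECAM1, CLDN5, KDR and EMCN were also singled out with FPKM values. CLDN5, KDR and EMCN were picked because their groups did not overlap. Alternatives were pseudocounts of 0.5 and 0.1, a stricter filter that asked for more than 1 FPKM in 3 or more samples (12449 mRNAs, 57 of the 60 genes), quantile normalization, median-of-ratios scaling, a fit with the replicate number as a block, a fit without the variance trend, a term for the libraries with more lncRNAs at 0, and each piglet left out. Differences within the libraries with fewer and with more lncRNAs at 0 were added after seeing the data.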

Additional observations from a re-analysis of the deposited data

How the results depend on the processing

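The counts of called genes were small and changed by more than 1.5 times in places. With 1 piglet left out, they ranged from 0 to 3 for WNT (4 with all), from 0 to 1 for Hedgehog (0 with all), from 1 to 5 for BMP/TGF-beta (3 with all) and from 2 to 7 for the other pathway genes (8 with all), where fewer samples entered the fit. Of the other pathway genes, 7 were called higher and 2 lower (CHRDL1 and PYGO1) by median-of-ratios scaling and 7 higher and 3 lower (with DCN) by quantile normalization. The stricter filter gave 1 Hedgehog gene (SMO), and median-of-ratios scaling gave 5 BMP/TGF-beta genes, adding SMAD4 and TGFBR3 as lower. With the replicate number as a block, 2 WNT genes (FZD9 and WNT11) and 5 other pathway genes were called. Same-numbered piglets did not deviate together (correlations from -0.0407 to 0.000466) and came from different sows, so the numbers do not pair the samples.

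Scaling moved the median log2 difference of all mRNAs from 0.13 to -0.0090 (median-of-ratios) and -0.04 (quantile). The median difference of the WNT members of these pathways moved with it from 0.09 to -0.0054 and -0.0213, and the median difference of the BMP/TGF-beta members from 0.0726 to -0.0725 and -0.11. The median difference of the Hedgehog members was 0.58 with a pseudocount of 0.1 and 0.22 to 0.53 with 1 piglet left out, and that of BMP/TGF-beta 0.0672 to 0.21. Genes that were not called changed sign under median-of-ratios scaling (LEF1 -0.13, HHIP -0.10, BMP4 -0.0355, TGFB2 -0.10, ACVRL1 -0.15), under quantile normalization (LEF1 -0.11, HHIP -0.19, BMP4 -0.0187, TGFB2 -0.14, TGFBR2 -0.11, BMPR2 -0.12, ACVRL1 -0.30), with a term for the libraries with more lncRNAs at 0 (BMP4 -0.0519, ACVRL1 -0.0513) and with a pseudocount of 0.1 (LEF1 -0.0003). With 1 piglet left out, the sign turned for WNT3A (-0.37 to 0.20), FZD6 (-0.16 to 0.0662), LEF1 (-0.17 to 0.17), PTCH1 (-0.63 to 0.0668), HHIP (-0.0854 to 0.24), BMP3 (-0.20 to 0.0599), BMP4 (-0.11 to 0.28), BMP5 (-0.35 to 0.12), TGFB2 (-0.0283 to 0.16) and ACVRL1 (-0.10 to 0.16). The share of TGFB1 in its family was 1.63 percentage points lower after birth by mean (-1.63, from -2.97 to 0.0333 with 1 piglet left out) while its log2 difference was 0.37, and that of TGFB2 was -9.61 against 0.0726.

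The 7 called genes kept their direction under each of these alternatives. Beyond the fits with fewer piglets, WNT7B missed the threshold under median-of-ratios scaling (adjusted p = 0.0556) and with the block (0.0888), SFRP1 with the block (0.0822) and with the term for the lncRNAs at 0 (0.0532), and ENG under quantile normalization (0.0820) and with the block (0.0696), and the cause was not tested. ID1 passed it under the stricter filter (0.0472) and without a variance trend (0.0496), and TGFBR3 under median-of-ratios scaling (0.0489).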
